A study of Mus musculus with 6 samples.

Results

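Regulators of chromatin were examined in BCR-ABL1+ mouse B cells with and without gamma-catenin. The genes encode the subunits of the Polycomb repressive complexes, the enzymes that add or remove DNA methylation, histone demethylases and methyltransferases, acetyltransferases and deacetylases, and subunits of chromatin remodellers. They were listed by name and function as 41 genes, and 40 of them had a probe set that the array annotation assigns to 1 gene symbol. Ash1l was not analysed here. The 40 genes are a small part of the 19938 genes measured in this way.

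Jup encodes gamma-catenin (plakoglobin), which joins cadherins to the cytoskeleton in desmosomes and adherens junctions and is a close relative of beta-catenin. In both groups the cells descended from C57BL/6 fetal liver of CD45.2+ donor embryos, which had first reconstituted CD45.1+ mice. Bone marrow of these chimeras was transduced with a retrovirus for green fluorescent protein and BCR-ABL1, the tyrosine kinase made by the Philadelphia translocation, and moved to irradiated CD45.1+ recipients. GFP+ B220+ BP-1+ CD45.2+ cells were sorted from bone marrow at day 21. The 3 KO samples had the genotype Jup-/- and the 3 WT samples Jup+/+, so both groups share the oncogene, the retroviral vector, the marker and the transplantation. The labels call the samples biological replicates and do not say how many animals each one holds, so p-values measure the spread between these samples. Each sample was hybridised to 1 array, and precision is limited by how few arrays there are. All levels are log2 values as deposited, all differences are KO minus WT on that scale, and a difference of 1 is a doubling of the array signal. Levels of different probe sets are not ranked as amounts of RNA.

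Polycomb repressive complex 2 (PRC2) methylates histone H3 at a lysine that marks silenced genes, and complex 1 (PRC1) binds that mark and ubiquitinates histone H2A. DNA methyltransferases can silence promoters rich in CpG dinucleotides, and TET dioxygenases start the removal of the methyl groups. In acute leukaemia several of these genes are known as sites of recurrent mutation, and EZH2 is known to be needed for immunoglobulin heavy chain rearrangement in early B cells.

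The targeted gene Jup measured 7.04, 7.06 and 7.27 in KO replicates 1, 2 and 3 and 8.04, 7.62 and 8.51 in WT, a difference of -0.93 (SE 0.20) without overlap between the groups that missed the threshold (limma adjusted p = 0.171). Whether the probe set lies in the deleted part of the gene is unknown here. The sorted cells had strong signals of the B lineage genes Igll1 (13.93 to 14.02) and Cd79a (13.60 to 13.76). The mean of 11 pro-B and pre-B markers was 12.28 to 12.43 in the 6 arrays. The differences of these markers ran from -0.25 to 0.50, with 1 higher and 1 lower in KO at a limma unadjusted p under 0.05. Myeloid markers were higher in KO, with 14 of 15 means higher, 11 of them at an unadjusted p under 0.05 and 3 called, and a mean level over the list of 8.59 to 8.67 in KO against 7.71 to 8.20 in WT. Their monocyte receptor gene Csf1r was dim, at 6.42 to 6.70. Of the other marker lists, erythroid genes had means of 7.88 to 7.90 in KO and 7.76 to 7.85 in WT. Of the 6 measured, 3 had a higher and 3 a lower KO mean, with 1 called higher (Car1) and 1 lower at a limma unadjusted p under 0.05. T and NK genes had means of 6.10 to 6.36 in KO and 6.19 to 6.50 in WT. Of these 7 genes, 2 had a higher and 5 a lower KO mean, and 2 were lower at that unadjusted threshold. Stromal and endothelial genes had means of 7.05 to 7.16 and 6.98 to 7.11, with 0 genes past it. Stem and progenitor genes had means of 6.23 to 6.41 and 6.17 to 6.41, with 1 gene lower past it. In bulk RNA, fewer cells of a type and less RNA per cell cannot be told apart. WT replicate 2 stood apart in sex-linked genes, with Xist at 6.20 against 13.03 to 13.38 in the 5 other arrays and Uty at 10.09 against 4.96 to 5.54.

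None of the 40 chromatin regulators passed the threshold of limma adjusted p under 0.05 over all 21789 probe sets, of which 0.119% passed (0.0505% higher and 0.0688% lower in KO). The smallest adjusted p was 0.201, for Kdm5b. With the unadjusted p under 0.05, KO was higher for 5 regulators (Kdm5b, Jarid2, Tet1, Cbx7 and Arid1b) and lower for 2 (Cbx2 and Hdac1). That is 17.5% of the 40 genes, against 9.22% of all probe sets, of which 4.48% were higher and 4.73% lower. The groups did not overlap for 9 regulators, 6 with KO above WT and 3 with KO below, or 22.5%, against 14.0% of all probe sets (5.94% above and 8.08% below). Both shares over all probe sets include dim ones and several of the same gene. They are not matched to the 40 genes, all brighter than the array median, so no excess is read from them. The median difference of the 40 genes was 0.02, beside -0.02 over all probe sets, and ran from 0.00045 without KO replicate 2 to 0.05 without KO replicate 3. Without KO replicate 2, KO replicate 3 or WT replicate 3, 3 regulators were higher at an unadjusted p under 0.05. Without KO replicate 2, 0 were lower, and without KO replicate 3 or WT replicate 2, 1 was.

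**Figure D1:**
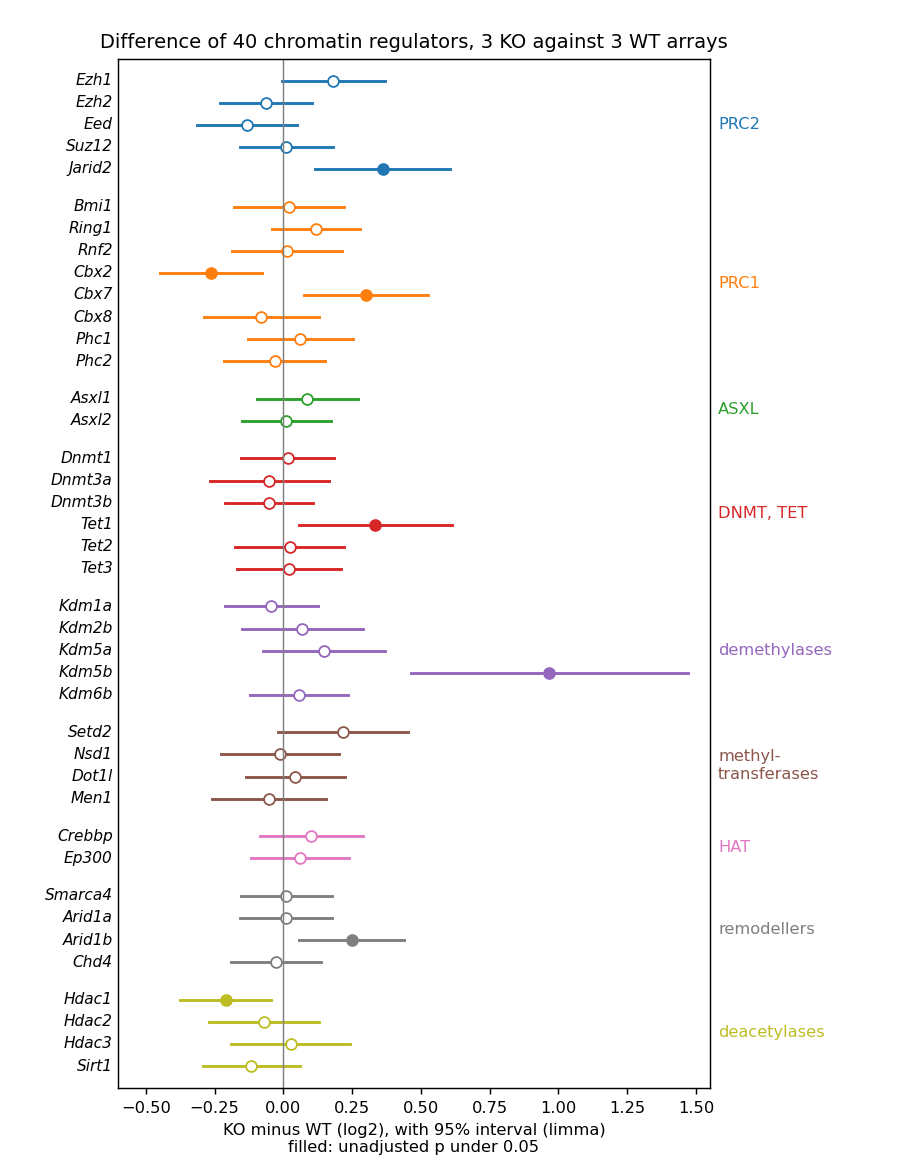
KO minus WT difference (log2, x axis) of each of the 40 genes, with its 95% interval from limma over 3 KO and 3 WT arrays, coloured by complex or enzyme class, and filled where the unadjusted p is under 0.05. Kdm5b stands farthest from 0 at 0.97, 5 of the 7 filled points lie to the right of 0, and 36 of 40 intervals lie within 0.5 of 0 on either side.

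The arrays were precise enough to limit the size of most differences in array signal. Standard errors ran from 0.07 to 0.22 with a median of 0.08. For 36 of the 40 genes the whole 95% interval lay within 0.5 of 0, that is within a 1.41-fold change of signal in either direction. Each interval is for 1 gene, is not adjusted for the number of genes, and does not bound the change in RNA itself. In the 4 others, Kdm5b, Jarid2, Tet1 and Cbx7, the upper end of the interval lay above 0.5. In 26 genes the difference was under 0.1 in size. All 40 genes were brighter than the array median (7.53 to 7.61) in every array.

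Kdm5b encodes a demethylase that removes methyl groups from histone H3 at the lysine that marks active promoters. It measured 8.84, 9.70 and 9.34 in KO replicates 1, 2 and 3 and 8.65, 8.07 and 8.26 in WT. All KO arrays lay above all WT arrays, with KO replicate 1 and WT replicate 1 only slightly apart. The means were 9.29 ± 0.43 in KO and 8.33 ± 0.30 in WT (SD, n = 3 each), which is a 1.95-fold difference with a 95% interval of 1.38-fold to 2.77-fold. The gene missed the threshold (log2 difference 0.97, SE 0.22, limma adjusted p = 0.201). It passed only with array weights that limma estimated from these same values (1.15, limma adjusted p = 0.0472). These weights were lowest for WT replicate 1 (0.336) and highest for WT replicate 2 (2.12), the WT arrays with the highest and lowest Kdm5b values. The within-group SD of Kdm5b was the highest of the 40 genes (0.37 pooled, against a median of 0.08). Leaving out 1 array at a time gave differences from 0.76 to 1.19, and the limma adjusted p over all alternatives ran from 0.0472 to 0.557.

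Its relative Kdm5a, which acts on the same mark, differed by 0.15 (SE 0.10, 95% interval -0.07 to 0.37), and its KO values of 10.69 to 10.91 overlapped the WT values of 10.49 to 10.75. The log2 ratio of Kdm5a to Kdm5b was 1.90, 1.21 and 1.35 in KO and 2.10, 2.43 and 2.39 in WT, so the ratio was lower in KO by 0.82 (SE 0.23). This was 1 of 12 ratios between related genes that were compared. Of these, 5 did not overlap between the groups, and the others overlapped, among them Phc1 to Phc2, Ring1 to Rnf2, Asxl1 to Asxl2 and Tet2 to Tet3. How often ratios of other gene pairs do not overlap was not computed. With 3 arrays against 3 an exact two-sided permutation test cannot go below p = 0.1. All 5 ratios without overlap reached it, that of Kdm5a to Kdm5b among them (adjusted p = 0.24 over the 12, exact permutation test). The X-linked relative Kdm5c and the X-linked demethylase gene Kdm6a, both known to escape X inactivation, were lowest in WT replicate 2, at 10.43 and 10.53, against 10.76 to 10.94 and 11.03 to 11.22 in the 5 other arrays. The Y-linked Kdm5d was at 8.57 in that array and at 4.72 to 5.55 elsewhere.

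The intervals of the 3 other demethylases all included 0. Kdm1a, which encodes the demethylase LSD1, differed by -0.04 (95% interval -0.21 to 0.12). Kdm2b, whose product recruits a variant PRC1 to unmethylated CpG islands, differed by 0.07 (-0.15 to 0.29). Kdm6b, whose product removes the PRC2 mark, differed by 0.06 (-0.12 to 0.24). In each of these genes the KO and WT arrays overlapped.

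Among the 5 PRC2 genes the accessory subunit and the alternative enzyme had the highest differences. Jarid2 encodes a DNA-binding subunit that helps bring PRC2 to its targets. It measured 10.65, 10.89 and 10.91 in KO and 10.62, 10.33 and 10.42 in WT, so that KO replicate 1 and WT replicate 1 nearly met while the other arrays were well apart. Its difference was 0.36 (SE 0.11, 1.28-fold, limma unadjusted p = 0.00909, adjusted p = 0.347). Ezh1, the methyltransferase used by PRC2 mainly in cells that divide little, measured 9.78, 10.01 and 9.89 in KO and 9.75, 9.68 and 9.72 in WT, and the groups did not overlap. The difference was 0.18 (SE 0.08) and its 95% interval reached from -0.01 to 0.37.

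Ezh2, the methyltransferase of PRC2 in dividing cells, measured 12.92, 12.86 and 12.86 in KO and 13.00, 12.94 and 12.89 in WT. Its groups overlapped, and the 95% interval of the difference (-0.06) ran from -0.23 to 0.10, or 0.853 to 1.07 times the WT level. The scaffold subunit Suz12 differed by 0.01 (-0.16 to 0.18). Eed, which reads the methyl mark, differed by -0.13 (-0.31 to 0.05), and its other, dim probe set by 0.10. The log2 ratio of Ezh2 to Ezh1 was 3.14, 2.85 and 2.96 in KO and 3.26, 3.26 and 3.17 in WT. It was lower in every KO array than in any WT array, by 0.24 (SE 0.09, exact permutation test p = 0.1, adjusted p = 0.24 over 12 ratios).

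**Figure D2:**
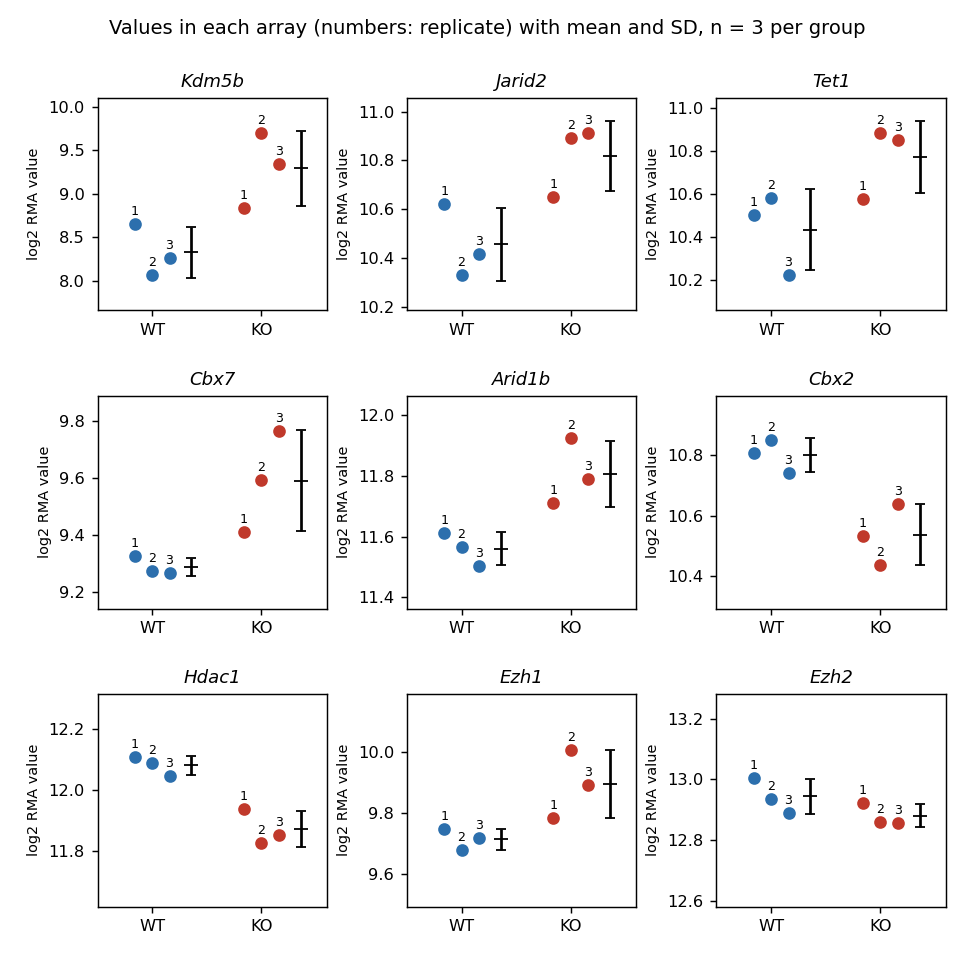
log2 RMA value (y axis) in each array of 9 regulators, WT in blue and KO in red, numbered by replicate, with the mean and SD of 3 arrays beside the points; each panel has its own scale. The KO arrays lie above the WT arrays for Kdm5b, Jarid2, Cbx7, Arid1b and Ezh1, below them for Cbx2 and Hdac1, and overlap them for Tet1 and Ezh2.

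In PRC1 the chromodomain subunits, which bind the PRC2 mark, went in both directions. Cbx7 measured 9.41, 9.59 and 9.76 in KO and 9.33, 9.27 and 9.27 in WT. The WT arrays lay close together (SD 0.033) and the KO arrays were spread above them (SD 0.18), with a difference of 0.30 (SE 0.10, 1.23-fold, limma unadjusted p = 0.0150, adjusted p = 0.387). Cbx2 measured 10.53, 10.44 and 10.64 in KO and 10.81, 10.85 and 10.74 in WT. All KO arrays were below all WT arrays, with a difference of -0.26 (SE 0.08, 1.20-fold lower in KO, limma unadjusted p = 0.0115, adjusted p = 0.365). Cbx8 differed by -0.08 (95% interval -0.29 to 0.13), and the log2 ratio of Cbx7 to Cbx8 was higher in every KO array (1.07 to 1.44) than in WT (0.72 to 0.89), by 0.38 (SE 0.13, exact permutation test p = 0.1, adjusted p = 0.24 over 12 ratios).

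The catalytic and scaffold subunits of PRC1 had smaller differences. Ring1 and Rnf2 encode the alternative ubiquitin ligases. Ring1 measured 8.77, 8.84 and 8.86 in KO and 8.73, 8.71 and 8.68 in WT, without overlap, and its difference was 0.12 (95% interval -0.04 to 0.28). Rnf2 differed by 0.01 (-0.18 to 0.21) and Bmi1, their partner, which sustains the renewal of stem cells and represses Cdkn2a, by 0.02 (-0.18 to 0.22). The polyhomeotic genes Phc1 and Phc2, whose products link PRC1 complexes to each other, differed by 0.06 (-0.13 to 0.25) and -0.03 (-0.21 to 0.15). Asxl1 and Asxl2 encode partners of the BAP1 enzyme, which removes the PRC1 mark, and differed by 0.09 (-0.10 to 0.27) and 0.01 (-0.15 to 0.17).

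Of the DNA methylation genes, Tet1 was the one with a difference at an unadjusted p under 0.05. It measured 10.58, 10.88 and 10.85 in KO and 10.50, 10.58 and 10.23 in WT. KO replicate 1 fell below WT replicate 2 by a small margin, and KO replicates 2 and 3 were above all WT arrays. The difference was 0.33 (SE 0.12, 1.26-fold, limma unadjusted p = 0.0233, adjusted p = 0.443). The 2 further probe sets of Tet1 gave 0.34 and 0.33, but they read the same RNA and are not replicates. Tet2 and Tet3, the other dioxygenases, both differed by 0.02, with 95% intervals of -0.17 to 0.22 and -0.17 to 0.21. The log2 ratio of Tet2 to Tet1 differed by -0.31 (SE 0.16), with overlap between the groups (exact permutation test p = 0.2, adjusted p = 0.4 over 12 ratios).

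The intervals of the DNA methyltransferases all included 0. Dnmt1, which copies methylation after replication, measured 11.94, 11.88 and 11.81 in KO and 11.83, 11.90 and 11.86 in WT, and its interval ran from -0.15 to 0.18. Dnmt3a and Dnmt3b, which methylate new sites, both differed by -0.05, with intervals of -0.27 to 0.16 and -0.21 to 0.11. The KO arrays of Dnmt3b (7.81 to 7.88), like those of Cbx2 and Hdac1, lay below all WT arrays (7.89 to 7.93), and its interval included 0. The ratio of Dnmt3a to Dnmt3b differed by 0.0026 (SE 0.078).

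Promoters are shown for the 4 regulators with the highest differences, and for Ezh2, which overlapped between the groups. They are RefSeq windows of build GRCm38.p6, each the 250 bases before the annotated start, written 5′ to 3′ on the gene's strand. Every CpG dinucleotide is in capitals, since KDM2B and TET1 are known to act at CpG islands. Kdm5b lies on the plus strand at chr1:134559928-134560177, Jarid2 on the plus strand at chr13:44730524-44730773 (the first of 2 annotated starts), Tet1 on the minus strand at chr10:62887325-62887574, Cbx7 on the minus strand at chr15:79932647-79932896 and Ezh2 on the minus strand at chr6:47595031-47595280.
Kdm5b: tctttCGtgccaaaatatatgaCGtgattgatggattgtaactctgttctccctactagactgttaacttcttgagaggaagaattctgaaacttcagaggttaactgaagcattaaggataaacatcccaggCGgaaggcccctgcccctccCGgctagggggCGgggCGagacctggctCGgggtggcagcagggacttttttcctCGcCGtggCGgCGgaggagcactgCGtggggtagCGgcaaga
Jarid2: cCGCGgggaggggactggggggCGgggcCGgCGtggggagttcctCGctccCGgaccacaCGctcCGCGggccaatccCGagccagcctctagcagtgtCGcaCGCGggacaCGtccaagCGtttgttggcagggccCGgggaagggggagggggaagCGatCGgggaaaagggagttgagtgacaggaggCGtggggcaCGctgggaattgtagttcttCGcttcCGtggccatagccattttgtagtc
Tet1: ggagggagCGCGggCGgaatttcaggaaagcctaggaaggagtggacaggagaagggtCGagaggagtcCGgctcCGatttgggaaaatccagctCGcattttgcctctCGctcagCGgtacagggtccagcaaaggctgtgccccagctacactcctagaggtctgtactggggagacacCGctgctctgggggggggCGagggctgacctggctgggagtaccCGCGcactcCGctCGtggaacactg
Cbx7: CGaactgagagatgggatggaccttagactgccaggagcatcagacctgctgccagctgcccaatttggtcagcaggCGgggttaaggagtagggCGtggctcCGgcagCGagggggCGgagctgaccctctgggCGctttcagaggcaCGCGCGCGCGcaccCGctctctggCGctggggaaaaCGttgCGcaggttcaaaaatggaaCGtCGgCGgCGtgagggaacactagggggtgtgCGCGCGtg
Ezh2: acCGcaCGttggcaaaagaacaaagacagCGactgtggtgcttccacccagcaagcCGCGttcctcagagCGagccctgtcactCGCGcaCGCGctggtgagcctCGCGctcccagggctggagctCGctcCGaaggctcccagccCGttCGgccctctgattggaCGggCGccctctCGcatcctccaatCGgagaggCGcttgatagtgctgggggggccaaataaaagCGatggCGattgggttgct

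The window of Kdm5b held 13 CpG and that of Tet1 15, while Jarid2, Cbx7 and Ezh2 each held 23. Over all 32851 windows in the table the median was 6.0, and over the 48 windows of the 34 regulators found there it was 22.5, with a range from 1 to 51. Kdm5b and Tet1 thus lay below the median of the regulators, and the windows shown for Jarid2, Cbx7 and Ezh2 just above it. The window of the other Jarid2 start held 22 CpG, just below that median. The words CTTTGAT and CTTTGAA, which TCF/LEF factors, the DNA-binding partners of beta-catenin, are known to bind, were searched on both strands. They were found in 3 of the 48 windows (6.25%), those of Dnmt1, Phc1 and Suz12, against 7.48% of all windows. The E-box CACGTG, a word bound by MYC, was found in 5 (10.4%), those of Bmi1, Cbx8, Dnmt3a, Phc2 and Sirt1, against 6.02% of all. The windows of the regulators had a median of 67.8% G and C, against 52.4% in all windows. Some regulators had several windows. The shares of both kinds of word were not matched for base content, so no excess or lack is read from them. CTTTGAT and CTTTGAA differ only in the last letter, so they cannot match at one place, and neither overlaps CACGTG in sequence. A match is not a binding site, and none of these words was in the 5 windows shown.

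Among the enzymes tied to active chromatin, Setd2 had the highest difference. Setd2, which methylates histone H3 along transcribed genes, measured 10.78, 10.97 and 10.85 in KO and 10.81, 10.66 and 10.47 in WT. The KO arrays were mostly higher, WT replicate 1 lay among them, and the difference was 0.22 (SE 0.10, 95% interval -0.02 to 0.45). Its other probe set gave 0.23. Dot1l, the methyltransferase recruited by MLL fusion proteins, differed by 0.04 (-0.14 to 0.22), Nsd1 by -0.01 (-0.23 to 0.20), and Men1, which encodes the MLL partner menin, by -0.05 (-0.26 to 0.16). The acetyltransferases CBP and p300 (Crebbp and Ep300) differed by 0.10 (-0.09 to 0.29) and 0.06 (-0.12 to 0.24), and the ratio of the pair by 0.04 (SE 0.04).

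Of the remodeller subunits, the BAF subunit gene Arid1b and its alternative Arid1a had unlike differences. Arid1b measured 11.71, 11.92 and 11.79 in KO and 11.61, 11.56 and 11.50 in WT, without overlap. The difference was 0.25 (SE 0.08, 1.19-fold, limma unadjusted p = 0.0168, adjusted p = 0.404). Arid1a measured 11.95, 12.05 and 12.09 in KO and 12.04, 12.01 and 12.02 in WT, and its interval ran from -0.16 to 0.18. The log2 ratio of Arid1a to Arid1b was 0.24, 0.13 and 0.30 in KO and 0.43, 0.44 and 0.51 in WT, lower in KO by 0.24 (SE 0.06, exact permutation test p = 0.1, adjusted p = 0.24 over 12 ratios). Smarca4, the ATPase of BAF, differed by 0.01 (-0.15 to 0.18) and Chd4, the ATPase of the NuRD complex, by -0.03 (-0.19 to 0.14).

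Hdac1, a deacetylase of the NuRD and SIN3 complexes, was lower in KO at an unadjusted p under 0.05, as Cbx2 was. It measured 11.94, 11.82 and 11.85 in KO and 12.11, 12.09 and 12.05 in WT. The 2 groups were each tight and did not overlap, and the difference was -0.21 (SE 0.07, 1.16-fold lower, limma unadjusted p = 0.0190, adjusted p = 0.419). A further probe set gave -0.22. RefSeq lists a pseudogene name among the synonyms of this gene, and whether the 2 probe sets match separate loci is unknown here. Hdac2, which can replace Hdac1 in these complexes, differed by -0.07 (95% interval -0.27 to 0.13), and the ratio of Hdac1 to Hdac2 was lower in every KO array, by 0.14 (SE 0.05, exact permutation test p = 0.1, adjusted p = 0.24 over 12 ratios). Hdac3, the deacetylase of the NCoR complexes, differed by 0.03 (-0.19 to 0.24) and Sirt1, a NAD-dependent deacetylase, by -0.12 (-0.29 to 0.06).

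**Figure D3:**
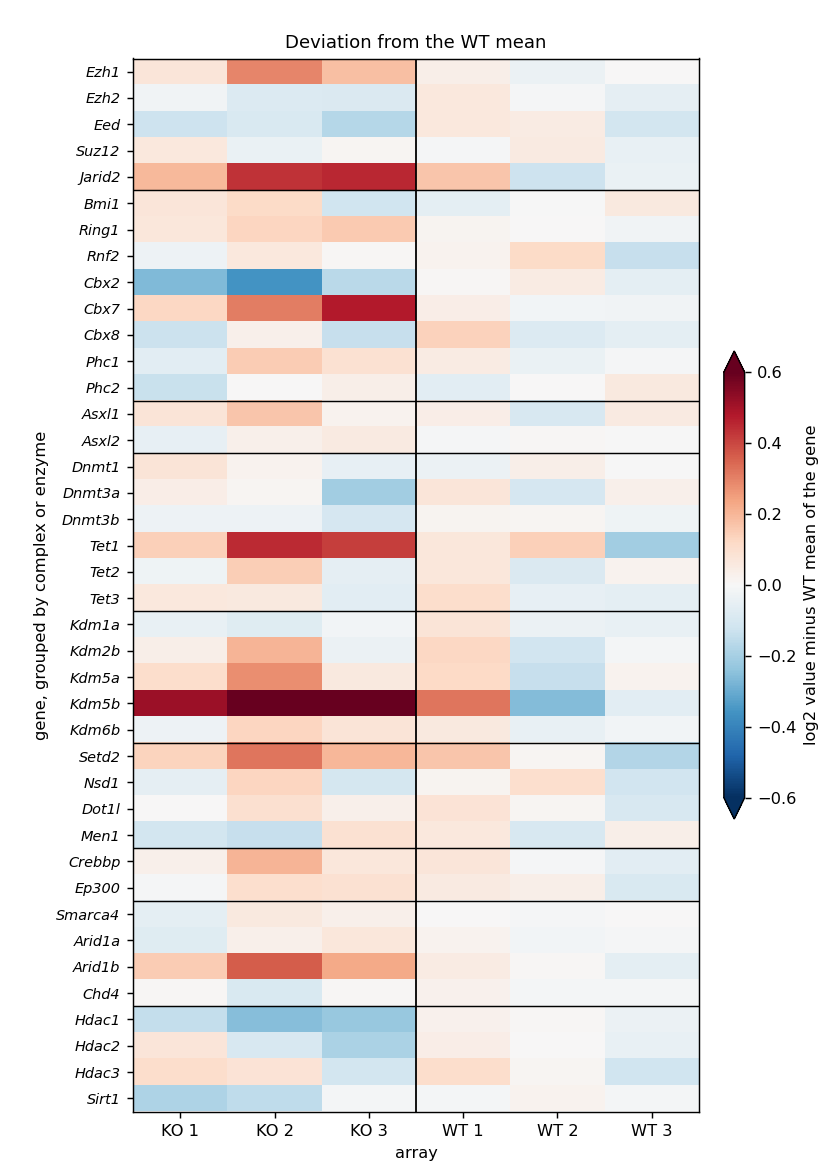
Deviation of each array (columns) from the gene's WT mean, in log2 units (colour), for the 40 genes (rows) grouped by complex or enzyme class; values of Kdm5b in KO replicates 2 and 3 (1.37 and 1.02) are beyond the colour scale. Jarid2, Cbx7, Tet1, Kdm5b and Arid1b are palest in KO replicate 1 among the KO arrays.

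The arrays of a group were not alike. Over the 40 regulators, 34, 19 and 9 lay above their WT mean in WT replicates 1, 2 and 3, and 21, 29 and 23 in KO replicates 1, 2 and 3. WT replicate 1 also had the lowest array weight, 0.336, where the others had 0.938 to 2.12. For 6 of the 7 genes with an unadjusted p under 0.05, KO replicate 1 was the KO array nearest to the WT mean, Cbx2 being the exception. Kdm5b stood 0.51, 1.37 and 1.02 above the WT mean in KO replicates 1, 2 and 3, Jarid2 0.19, 0.43 and 0.45, and Cbx7 0.12, 0.31 and 0.48. Among the cell division genes, measured by 17 of 18 listed, the mean level was 11.78, 11.67 and 11.61 in KO and 11.77, 11.78 and 11.68 in WT. Of these genes, 4 had a higher and 13 a lower KO mean, with a median difference of -0.05. At an unadjusted p under 0.05 in limma there were 0 of 17. The part of the myeloid markers, of cell division and of donor sex in the differences of the regulators was not tested. Without WT replicate 2, the array that differed in sex, the differences were 0.84 for Kdm5b, 0.30 for Jarid2, 0.41 for Tet1, 0.29 for Cbx7, 0.25 for Arid1b, -0.24 for Cbx2 and -0.21 for Hdac1.

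A wider list of 152 other chromatin genes, 144 of them measured, was examined in the same fit. None was called over all probe sets. With the unadjusted p under 0.05, KO was higher for 13 and lower for 4 (11.8%, against 9.22% of all probe sets, dim ones included). The median difference was 0.03 (0.0088 without WT replicate 3). Without WT replicate 1, 24 were higher, and without KO replicate 2, KO replicate 3, WT replicate 2 or WT replicate 3, 4, 6, 7 and 5 were. Those lower were 8 without KO replicate 1, 1 without KO replicate 2 or 3, and 2 without WT replicate 2. By subgroup the medians were -0.02 for 23 other Polycomb genes, 0.09 for 14 other DNA methylation genes, and 0.04, 0.04 and 0.03 for 42 histone methylation, 30 acetylation and 35 remodelling genes. With 1 array left out they ran from -0.05 (without WT replicate 3) to 0.02 (without WT replicate 1) for the Polycomb genes, 0.07 to 0.12 for DNA methylation, 0.01 to 0.07 for histone methylation, 0.0024 to 0.08 for acetylation and 0.02 to 0.04 for remodelling.

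The 3 genes with the highest moderated t were deacetylases. Hdac5, a class II deacetylase that moves between nucleus and cytoplasm, measured 9.07, 10.11 and 9.55 in KO and 8.59, 8.38 and 8.44 in WT. All KO arrays were above all WT arrays, KO replicate 1 again the nearest, and the 2.16-fold difference was short of the threshold (log2 difference 1.11, SE 0.22, limma adjusted p = 0.150). It passed without KO replicate 1 (1.36, limma adjusted p = 0.0329). Hdac9, of the same class, was higher by 0.59 (SE 0.15) and Hdac8, a class I deacetylase, by 0.46 (SE 0.12), neither past the threshold. At the other end were Smyd2, a lysine methyltransferase (-0.42, SE 0.11), the mitochondrial deacetylase gene Sirt3 (-0.26, SE 0.09) and Foxk2, a partner of BAP1 (-0.19, SE 0.08).

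Genes that Polycomb and DNA methylation are known to silence in many somatic cells were listed as a readout. Of 43 measured developmental targets, 12 had a higher and 31 a lower KO mean, where 44.2% of all probe sets were higher. The median difference was -0.08, and ran from -0.12 without WT replicate 1 to -0.04 without WT replicate 2 or 3. With the unadjusted p under 0.05, KO was higher for 2 and lower for 4, where 4.48% of all probe sets were higher and 4.73% lower. Foxc1, a forkhead factor gene, was called (7.24, 7.25 and 7.38 in KO against 8.43, 8.68 and 8.23 in WT, limma adjusted p = 0.0198), and its call was known when the list was drawn up. The call was lost without KO replicate 2 (limma adjusted p = 0.114), KO replicate 3 (0.102) or WT replicate 1 (0.0841). Gata6 (0.67, SE 0.18), Isl1 (0.40, SE 0.14) and Bmp4 (0.59, SE 0.27) had the highest moderated t, and Lhx2 (-0.20, SE 0.07) was low, all short of the threshold, although Bmp4 passed without KO replicate 1 (0.94, limma adjusted p = 0.0452). Most of these genes were dim. The list means were 6.75, 6.78 and 6.84 in KO replicates 1, 2 and 3 and 6.72, 6.91 and 6.90 in WT, lowest in WT replicate 1. The shares given over all probe sets were not limited to dim ones. The 19 germline genes had a median of -0.04, with 7 higher and 12 lower means (omitting WT replicate 1 made the median -0.09, KO replicate 1 made it 0.01 and WT replicate 3 made it 0.02), and Rpl10l (-0.30, SE 0.09) had the lowest difference. The highest was that of Syce1, a synaptonemal complex gene named after its values were seen (0.86, SE 0.74), which measured 8.32 in KO replicate 3 and 5.10 to 5.45 in the 5 other arrays.

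**Figure D4:**
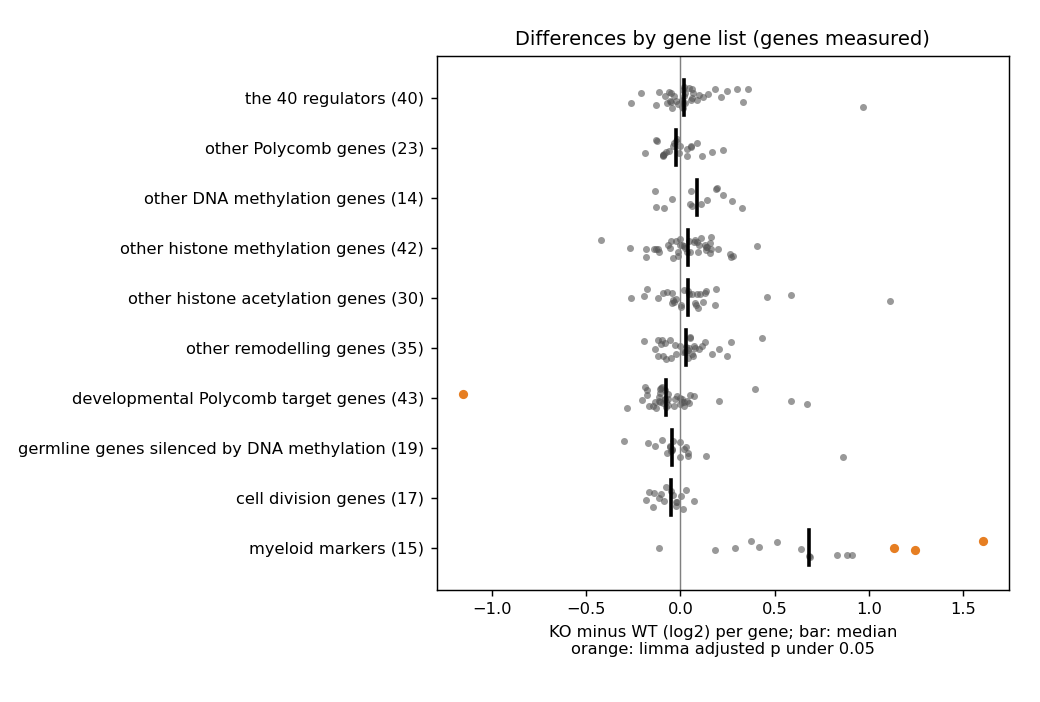
KO minus WT difference (log2, x axis) of each measured gene in the 40 regulators and 9 other lists, with the number of genes in parentheses, the median as a black bar and genes with a limma adjusted p under 0.05 in orange. The median of the 40 regulators is 0.02 and that of the myeloid markers 0.68, and Foxc1 at -1.15 and 3 myeloid genes are the orange points.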

How the data were processed

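RNA of 3 KO and 3 WT samples was measured on 1-colour Affymetrix arrays. The deposited values are log2 probe set values, which the authors computed by RMA (Expression Console 1.1 of Affymetrix, as the submitters' processing notes list it); options and annotation are not given in the sources used here. RMA usually makes array distributions equal, which removes shifts common to all genes. Of 35556 rows, 21789 had 1 gene symbol in the platform annotation and were tested; 1621 had several symbols and 12146 were unnamed here. Each gene was read from its probe set with the highest mean.

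The groups were set against each other in limma 3.58.1 under R 4.3.3 (lmFit, eBayes, constant prior, no covariate, no filter on dim probe sets), adjusted by Benjamini-Hochberg over all 21789 probe sets. Intervals are limma's 95% intervals. Ratios of related genes were compared with exact permutation tests. The genes named are all regulators found, Jup, and the 3 highest and 3 lowest of the other chromatin genes and of the target genes by moderated t, with any called. Marker and sex-linked genes, Kdm5c, Kdm6a and Syce1 lie outside that rule and were named after their values were seen. The regulators, the lists and the tests were chosen with earlier results of these data known. Promoter windows are from RefSeq GRCm38.p6. Alternatives were other row sets, priors, weights, normalizations, a threshold of 0.1, averaged probe sets of a gene, the replicate number as a block, and each array left out.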

Additional observations from a re-analysis of the deposited data

How the results depend on the processing

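Array weights called 1 regulator (Kdm5b) and gave 8 higher at the unadjusted threshold; no other alternative called a regulator. Leaving out 1 array gave 3 to 6 regulators higher and 0 to 2 lower at that threshold. Over all probe sets, 11 were called higher and 15 lower. The calls higher and lower were 17 and 23 with a trended and robust prior, 93 and 57 with array weights, 26 and 29 after centring on array medians, and 25 and 33 at an adjusted p under 0.1. When all rows were tested, 59 were lower. With 1 array left out, 1 to 41 were higher and 3 to 41 lower, the highest counts without KO replicate 1.

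Of the 40 regulators 25 kept their sign under every alternative run, and the 15 that did not differed by at most 0.051 in size. With array weights the differences of Dnmt1, Rnf2 and Suz12 turned to -0.00878, -0.0185 and -0.0129. After centring on array medians those of Arid1a and Smarca4 turned to -0.0017 and -0.00085, and the Suz12 KO minus WT difference to -0.000514. A further quantile normalization turned that of Chd4 to 0.00185. With 1 array left out, the differences of genes and ratios that turned ran over -0.0199 to 0.0497 for Arid1a, -0.00958 to 0.0416 for Asxl2, -0.0244 to 0.0925 for Bmi1, -0.0421 to 0.00631 for Chd4, -0.0154 to 0.0487 for Dnmt1, -0.101 to 0.0278 for Dnmt3a, -0.0521 to 0.057 for Dnmt3a over Dnmt3b, -0.00314 to 0.0848 for Dot1l, -0.0327 to 0.0936 for Hdac3, -0.0806 to 0.0386 for Nsd1, -0.0646 to 0.0191 for Phc2, -0.0547 to 0.0718 for Rnf2, -0.0139 to 0.0455 for Smarca4, -0.0155 to 0.0371 for Suz12, -0.0396 to 0.0596 for Tet2, -0.0396 to 0.0496 for Tet2 over Tet3, -0.00831 to 0.0732 for Tet3.

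Same-numbered KO and WT arrays had deviations that correlated at 0.104, -0.0043 and 0.275, and unlike-numbered ones at -0.251 to 0.134. These values do not decide whether the numbers pair the samples. The labels do not call the samples paired, and the main fit did not pair them. With the replicate number as a block, 8 probe sets were called higher and 11 lower, 0 regulators were called, 5 were higher and 2 lower at the unadjusted threshold, and the Foxc1 KO minus WT difference lost its call (limma adjusted p = 0.0604). In the other chromatin genes, array weights gave 25 higher and 7 lower and centring gave 8 higher. The cause of these changes was not tested.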
